A study of Mus musculus with 6 samples.

Results

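The mesenchymal transcription factors *Twist1*, *Twist2*, *Msx1*, *Msx2*, *Prrx1*, *Snai1*, *Snai2*, *Zeb1*, *Zeb2* and *Tcf21* were read from the count table of a bulk RNA-seq experiment on CD11b+ cells of mouse tumors, where they make up 10 of 25701 genes. They were chosen by gene symbol with results of the same comparison already in view, so their differences between the groups are given as a description and without a test. Every mouse carried a floxed MCT2 gene (*Slc16a7*, a pyruvate and lactate transporter) together with the mCre-Tg transgene on a C57BL/6 background. Mice aged 8 weeks received tamoxifen, which activates the Cre recombinase, in the MCT2 KO group and vehicle in the MCT2 CO group, so an effect of the drug itself and an effect of the deletion cannot be told apart. After 2 days TC1 cells, a mouse lung epithelial tumor line that does not come from these mice, were placed under the skin of the flank, and the tumors were taken at 24 days, digested with collagenase and enriched for CD11b+ cells with magnetic beads. The library labels give lung as the tissue and purified macrophages as the cell type, while the methods describe flank tumors, and the methods were followed. Poly-A RNA of 3 MCT2 CO and 3 MCT2 KO preparations was sequenced. The knockout is described as conditional in the methods, which give a stock number for the Cre mice but do not name the promoter that drives Cre. The study calls the deletion inducible and systemic.

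Mesenchymal transcription factors direct the identity of connective tissue cells and, in epithelial cells, the epithelial to mesenchymal transition (EMT), in which cell junctions are lost and motility is gained. TWIST1, TWIST2 and TCF21 are basic helix-loop-helix proteins that bind DNA as dimers, MSX1, MSX2 and PRRX1 are homeodomain proteins of limb, head and connective tissue development, and SNAI1, SNAI2, ZEB1 and ZEB2 are zinc finger repressors whose best known target is the E-cadherin gene. Most of these genes mark fibroblasts and other stromal cells rather than leukocytes, whereas *Zeb2* is also used by macrophages and other myeloid cells.

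Total counts ranged from 24863611 to 31713704 per library, and values are given as CPM, a gene's counts per 1e+06 counts of its library, after TMM scaling, with the SD over 3 libraries of a group. The targeted gene *Slc16a7* had 481, 287 and 298 counts in MCT2 CO and 196, 162 and 133 in MCT2 KO, a log2 fold change of -1.05 (SE 0.24), so its RNA was lower but still present. Of 14 macrophage markers 13 passed the filter on low counts, with a summed level of 5881 to 7829 CPM in MCT2 CO and 6917 to 10920 CPM in MCT2 KO. The remaining one, *Itgam*, which encodes CD11b, had 1 count in all, and 99.1% of its exons lie inside the span of the listed gene *Gm49368*. All 20 fibroblast markers passed too, so RNA of stromal genes was present in these preparations. Of 10 epithelial tumor cell markers 2 passed (*Cdh1* and *Epcam*), with *Nkx2-1*, a lung epithelial regulator, at 0 and a summed level of 14.5 to 21.4 CPM in MCT2 CO and 19.2 to 34.0 CPM in MCT2 KO. The authors state that telling TC1 cells apart from mesenchymal or stromal cells of the host would need lineage tracing or copy number data. Epithelial markers alone therefore do not give the share of TC1 RNA, and the part of TC1 cells in any factor was not tested.

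Of the 10 genes 8 passed the filter, which kept 13485 genes. In 4 of them, *Twist1*, *Msx1*, *Snai1* and *Snai2*, all 3 MCT2 KO libraries lay below all 3 MCT2 CO libraries, an arrangement found for 8.77% of all genes kept. None of the 8 lay wholly higher in MCT2 KO, against 7.07% of all genes kept, and the groups overlapped for *Twist2*, *Prrx1*, *Zeb1* and *Zeb2*. Because the genes were picked with this contrast in view, nothing is read from the share of 4 in 8. The median log2 fold change was -0.32 over the 8 genes, 6 of which were lower and 2 higher in MCT2 KO, beside 0.0004 over all genes kept. In bulk samples fewer cells of a type and less RNA per cell cannot be told apart, and this holds for every difference given here.

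The edgeR quasi-likelihood test called 0 of the 8 genes and 0.0% of all genes kept at the thresholds of the methods, which are 0.05 for the adjusted p and 0.58 for the size of the log2 fold change. At an unadjusted p under 0.05 the same tool counted 4 of the 8 as lower and 0 as higher, against 5.6% and 3.77% of all genes kept. DESeq2, the tool named in the methods, called 1 of the 8, *Msx1*, as lower. It did so among the genes kept (0.586% called, 0.334% lower) and also without the filter, among 18508 genes with any count (0.448% called, 0.27% lower), and limma-voom called 0. *Twist1* passed the adjusted p of DESeq2 but not the fold change threshold. Nothing is read from these calls for the same reason.

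**Figure D1:**
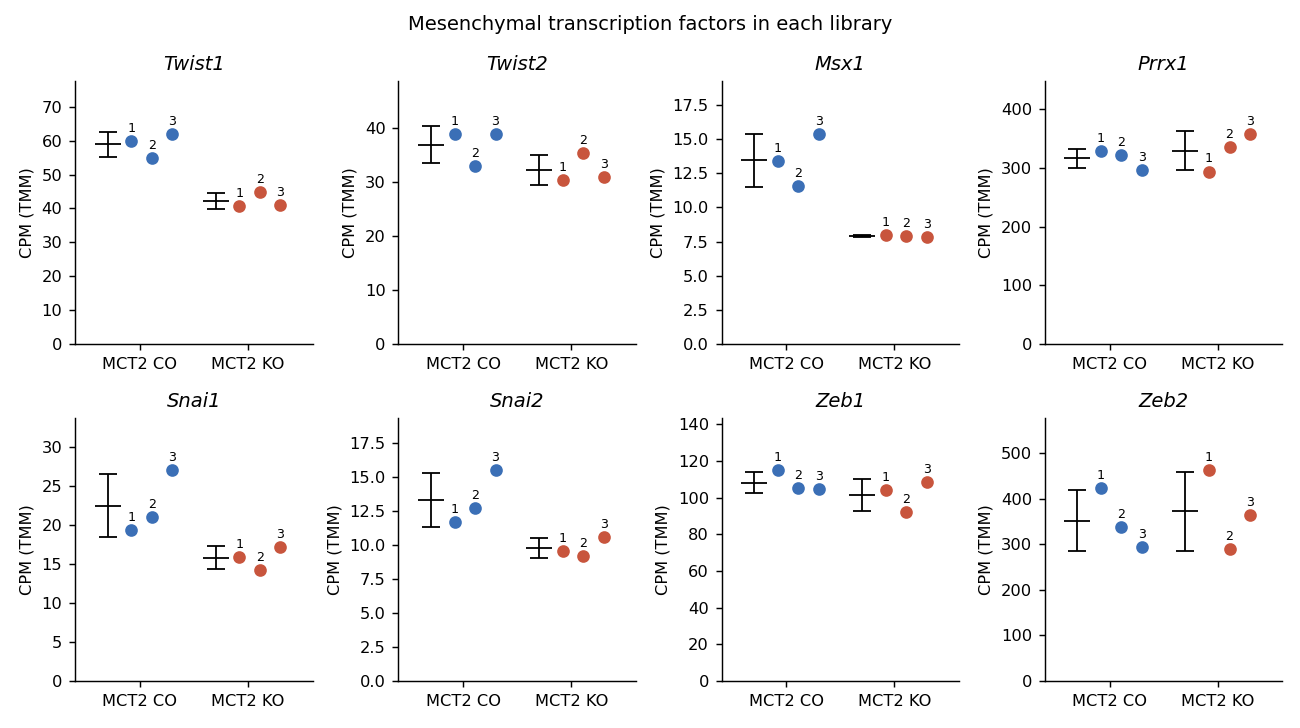
TMM CPM (vertical axes, each starting at 0) of the 8 genes that passed the filter, 1 panel per gene, with a numbered point for each library and, left of the points, the group mean as a line with the SD as a bar. The MCT2 KO points lie below every MCT2 CO point for *Twist1* (at most 44.8 against at least 54.9 CPM), *Msx1*, *Snai1* and *Snai2*, and the groups overlap in the other panels.

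The promoters of *Twist1*, *Msx1* and *Snai1* are shown because these 3 genes of different families were lower in every MCT2 KO library and have a RefSeq entry. Each sequence holds 250 bases before and 50 bases after the start of the gene on GRCm38.p6, 5′ to 3′ on the strand of the gene, at chr12:33957421-33957720 (plus strand) for *Twist1*, chr5:37824536-37824835 (minus strand) for *Msx1* and chr2:167537945-167538244 (plus strand) for *Snai1*. Capitals mark CACCTG, the E-box letters bound by SNAI and ZEB proteins, and the box CCAAT, which is a frequent promoter element. On the other strand these are read as CAGGTG and, for the second, as ATTGG.
Twist1: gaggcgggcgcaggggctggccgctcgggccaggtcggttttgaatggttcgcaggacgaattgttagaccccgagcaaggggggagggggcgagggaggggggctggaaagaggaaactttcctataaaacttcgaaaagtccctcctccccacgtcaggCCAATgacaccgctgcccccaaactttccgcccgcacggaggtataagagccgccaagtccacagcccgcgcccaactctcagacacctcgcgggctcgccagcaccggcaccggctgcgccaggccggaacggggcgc
Msx1: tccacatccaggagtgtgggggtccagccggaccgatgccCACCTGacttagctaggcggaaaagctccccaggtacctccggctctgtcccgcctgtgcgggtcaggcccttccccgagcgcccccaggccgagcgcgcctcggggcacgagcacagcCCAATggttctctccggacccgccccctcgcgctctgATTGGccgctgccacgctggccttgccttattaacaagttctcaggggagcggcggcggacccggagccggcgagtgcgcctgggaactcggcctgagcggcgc
Snai1: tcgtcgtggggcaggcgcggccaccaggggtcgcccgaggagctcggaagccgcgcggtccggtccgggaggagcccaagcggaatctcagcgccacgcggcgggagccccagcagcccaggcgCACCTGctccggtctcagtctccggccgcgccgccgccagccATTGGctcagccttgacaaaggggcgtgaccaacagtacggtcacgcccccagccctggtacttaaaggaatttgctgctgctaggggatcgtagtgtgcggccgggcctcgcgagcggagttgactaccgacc
CACCTG in either orientation was found 210 bases before the start in *Msx1* and 126 bases before it in *Snai1*, and not in the *Twist1* window. CCAAT in either orientation was found in all 3, at 89 bases before the start in *Twist1*, at 91 and 54 in *Msx1* and at 84 in *Snai1*. Among the other factors with an entry, CCAAT was also found in *Twist2* (63 bases before the start), *Msx2* (124 bases) and 1 of 4 *Zeb2* promoters, and not in *Prrx1* or *Tcf21*. The groups of *Twist2* and *Zeb2* overlapped, and *Msx2* had 1 count. CACCTG was found in none of these 5. Over 32817 RefSeq promoters of the same length, 20.2% hold CACCTG and 37.4% hold CCAAT, both counted in either orientation. The windows of *Twist1*, *Msx1* and *Snai1* were 66.0%, 70.0% and 70.0% G and C, against a median of 52.7% over all promoters. Of the 10 genes 8 had an entry, all but *Snai2* and *Zeb1*. CATATG, another E-box form, was in none of the 8 and in 3.92% of all promoters. These matches are descriptions of the letters in the windows.

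*Twist1* (ENSMUSG00000035799, chromosome 12, 33957671 to 33959829) encodes a helix-loop-helix regulator of mesoderm, skull and limb development. It had 1793, 1427 and 1649 counts in MCT2 CO and 971, 1459 and 1021 in MCT2 KO, which are 59.8, 54.9 and 62.05 CPM against 40.7, 44.8 and 41.0 CPM. The lowest MCT2 CO library stood 10.1 CPM above the highest MCT2 KO library, and the libraries of each group lay close together. The means were 58.9 ± 3.67 and 42.2 ± 2.27 CPM (SD, n = 3), with a log2 fold change of -0.48 (SE 0.09), and the MCT2 KO mean was 0.716 of the MCT2 CO mean. *Twist2* (ENSMUSG00000007805, chromosome 1, 91801461 to 91848028), its close relative in dermis and connective tissue, had 39.0, 32.9 and 39.0 CPM in MCT2 CO and 30.4, 35.5 and 30.9 CPM in MCT2 KO. MCT2 KO replicate 2 exceeded MCT2 CO replicate 2, so the groups overlapped, with a log2 fold change of -0.20 (SE 0.11). Per 100 counts of *Twist2*, a ratio within each library that was chosen after the values had been seen and that no library scaling can alter, *Twist1* had 153.5, 166.7 and 159.2 counts in MCT2 CO and 134.1, 126.2 and 132.8 in MCT2 KO. These ratios did not overlap between the groups, with every MCT2 KO value below every MCT2 CO value.

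*Tcf21* (ENSMUSG00000045680, chromosome 10, 22817281 to 22820174), a helix-loop-helix factor of visceral mesenchyme and of fibroblast precursors in lung and heart, had 0 counts in all 6 libraries. Out of 163703852 counts in all, a count of 0 allows up to 3 counts, or 0.0183 CPM, which covers counting error only. A difference in *Tcf21* was thus not detectable at this depth.

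*Msx1* (ENSMUSG00000048450, chromosome 5, 37820485 to 37824583) encodes a homeodomain repressor active in limb bud, tooth and facial mesenchyme and is a known target of bone morphogenetic protein (BMP) signaling. It had 401, 300 and 409 counts in MCT2 CO and 190, 257 and 195 in MCT2 KO, which are 13.4, 11.5 and 15.4 CPM against 7.97, 7.89 and 7.83 CPM. The MCT2 KO libraries were almost level with each other, at an SD of 0.848% of their mean, while the MCT2 CO libraries spread over 14.3%. At 190 to 257 counts per library, counting error alone is larger than the MCT2 KO spread. That small spread is therefore not read as a tighter group. The means were 13.4 ± 1.93 and 7.90 ± 0.0669 CPM (SD, n = 3), with a log2 fold change of -0.77 (SE 0.14), the lowest of the 8 genes, and the MCT2 KO mean was 0.588 of the MCT2 CO mean. Its paralog *Msx2* (ENSMUSG00000021469, chromosome 13, 53466884 to 53473074) had 1 count, in MCT2 KO replicate 2, and 0 in the other 5 libraries, so *Msx1* carried nearly all counts of this pair and no fold change is given for *Msx2*.

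*Prrx1* (ENSMUSG00000026586, chromosome 1, 163245119 to 163313710), a homeodomain gene that marks limb and skin mesenchyme and many fibroblasts, had 328.9, 322.6 and 297.2 CPM in MCT2 CO and 293.9, 336.1 and 358.3 CPM in MCT2 KO. The lowest and the highest library were both MCT2 KO, and the log2 fold change was 0.06 (SE 0.10). The listed gene *Gm37644* lies in an intron of *Prrx1* and shares none of its exons. *Prrx1* was thus near level between the group means, at 316 ± 16.8 and 329 ± 32.7 CPM (SD, n = 3), while *Twist1* and *Msx1* were not.

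*Snai1* (ENSMUSG00000042821, chromosome 2, 167538195 to 167542814), which encodes the Snail repressor of E-cadherin, had 581, 547 and 717 counts in MCT2 CO and 378, 464 and 428 in MCT2 KO. These are 19.4, 21.04 and 27.0 CPM against 15.85, 14.2 and 17.2 CPM, with means of 22.5 ± 4.00 and 15.8 ± 1.48 CPM (SD, n = 3) and a log2 fold change of -0.51 (SE 0.15). The groups lay 2.19 CPM apart at their nearest libraries, and MCT2 CO replicate 3 stood above the rest. *Snai2* (ENSMUSG00000022676, chromosome 16, 14705852 to 14709385), which encodes the Slug repressor of neural crest and mesenchyme, had 11.7, 12.7 and 15.5 CPM in MCT2 CO and 9.52, 9.15 and 10.6 CPM in MCT2 KO. The order of the libraries was that of *Snai1* within each group, the gap was 1.11 CPM, and the log2 fold change was -0.45 (SE 0.14). The ratio of the pair, 166.0, 165.3 and 174.5 counts of *Snai1* per 100 of *Snai2* in MCT2 CO and 166.5, 155.7 and 162.7 in MCT2 KO, overlapped between the groups.

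*Zeb1* (ENSMUSG00000024238), a repressor of epithelial genes in EMT, had 114.9, 105.3 and 104.5 CPM in MCT2 CO and 104.2, 92.0 and 108.8 CPM in MCT2 KO, a log2 fold change of -0.09 (SE 0.09) with overlapping groups. *Zeb2* (ENSMUSG00000026872, chromosome 2, 44983632 to 45117395), which acts in EMT, neural crest and myeloid cells, had 423.8, 337.5 and 293.8 CPM in MCT2 CO and 461.8, 290.2 and 363.7 CPM in MCT2 KO. Its SD of 66.2 and 86.1 CPM exceeded the distance between the group means of 352 and 372 CPM. The log2 fold change was 0.08 (SE 0.19), and its sign turned without MCT2 KO replicate 1 (-0.10) and without MCT2 CO replicate 3 (-0.03). MCT2 CO replicate 1 and MCT2 KO replicate 1 were the highest libraries of their groups for *Zeb2*, and so they were for the median of the macrophage markers. For *Zeb2* these 2 libraries lay 0.25 and 0.37 above the mean of the 6 libraries on the log2 CPM scale, and for the macrophage median 0.10 and 0.53 above it. The part of macrophage RNA in the *Zeb2* values was not tested.

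**Figure D2:**
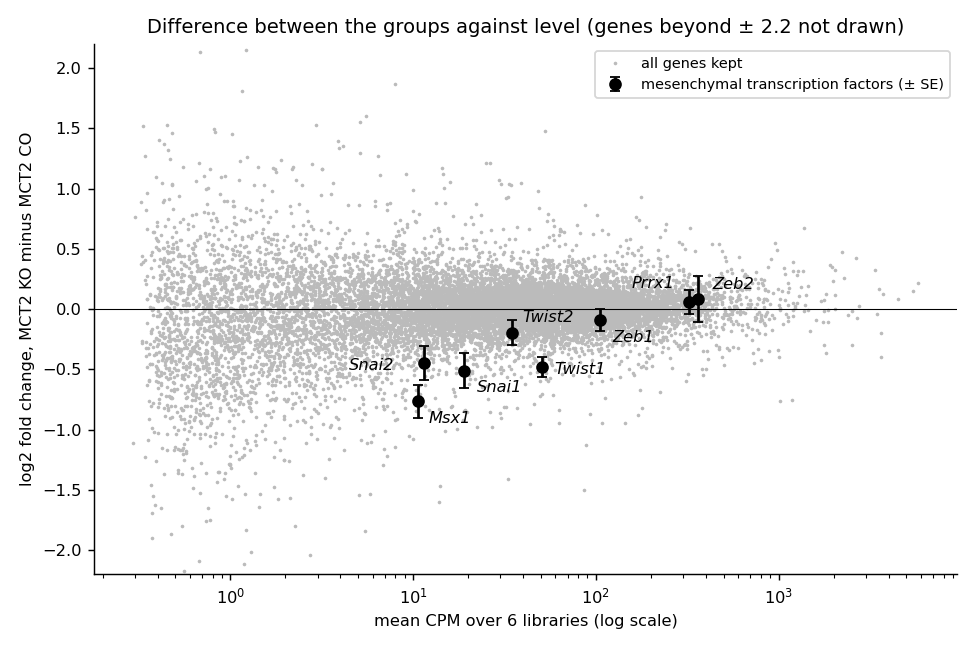
Log2 fold change of MCT2 KO minus MCT2 CO (vertical axis) against the mean CPM over 6 libraries (horizontal axis, log scale), with a grey point for each gene kept within ± 2.2 and black points with SE bars for the 8 genes. *Msx1* lies lowest at -0.77, *Twist1*, *Snai1* and *Snai2* lie between -0.51 and -0.45, and *Prrx1* and *Zeb2* lie just above 0.

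Levels were compared between genes per length, within each group, as CPM per kb of exon. In MCT2 CO *Twist1* was the most abundant of the 10 genes at 36.2 (33.7 to 38.1 over 3 libraries), above the whole range of *Prrx1* at 28.6 (26.9 to 29.7). In MCT2 KO the order of these genes was the other way round, with *Prrx1* at 29.8 (26.6 to 32.4) and *Twist1* at 25.9 (25.01 to 27.5), and *Prrx1* was the higher of the pair in each MCT2 KO library although the ranges over libraries overlapped. *Zeb2* stood at place 3 in both groups, at 17.6 and 18.65, below the whole range of *Prrx1*. *Snai1*, *Twist2* and *Zeb1* followed in this order in MCT2 CO, at 13.9, 11.6 and 10.5, with overlapping ranges between neighbours, and the range of *Snai1* overlapped that of *Zeb2* too. In MCT2 KO the order was *Twist2*, *Zeb1* and *Snai1*, at 10.2, 9.90 and 9.72, again with overlapping ranges. *Snai2* at 6.58 and 4.82 and *Msx1* at 4.34 and 2.55 came last of the 8 genes in both groups, and neither overlapped its neighbour in the order. Over the mean of all 6 libraries and 13467 genes with a known exon length, *Prrx1* stood at percentile 87.0, *Twist1* at 87.9, *Zeb2* at 77.4 and *Msx1* at 35.3. The length column of the table equals the whole gene span for every gene listed, and whether reads in introns were counted is not given in the sources used here, so neither length is known to be the one that fits these counts. Per kb of gene span *Twist1* came first in both groups, at 27.3 and 19.5. *Snai1* was then at 4.86 and 3.41, *Prrx1* at 4.61 and 4.80, and *Zeb1*, with its long introns, was last of the 8 at 0.5895 and 0.554. The order of the genes other than *Twist1* in MCT2 CO therefore depended on the length used.

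**Figure D3:**
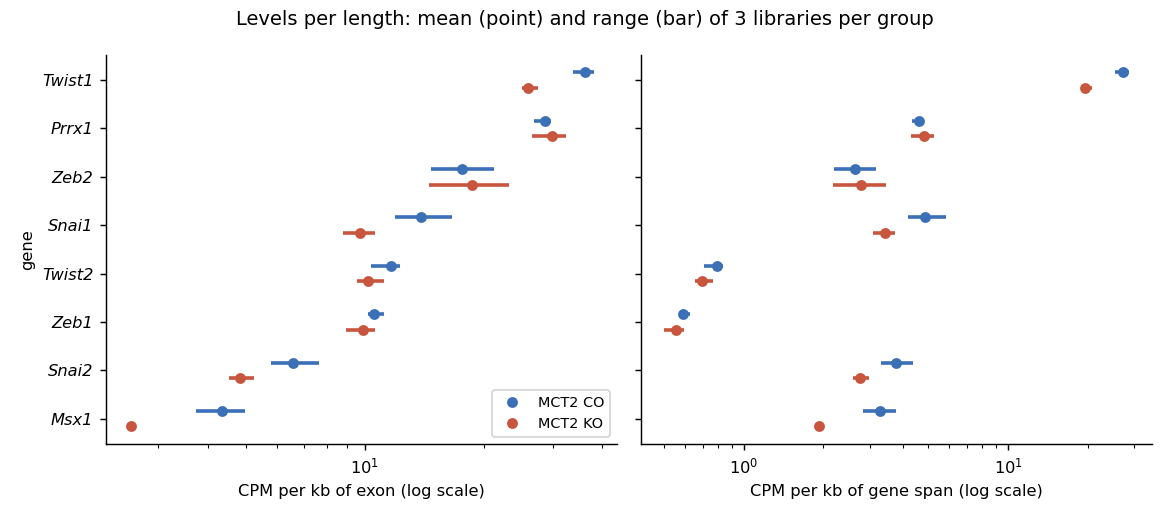
CPM per kb of exon (left) and per kb of gene span (right), both on log axes, for the 8 genes that passed the filter, with the mean of 3 libraries as a point and their range as a bar for MCT2 CO (blue) and MCT2 KO (red). Per kb of exon *Twist1* leads in MCT2 CO (36.2) and *Prrx1* in MCT2 KO (29.8), whereas per kb of span *Twist1* leads in both groups.

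Within each library the genes were also set against *Prrx1*, a comparison likewise chosen after the values had been seen. Per 100 counts of *Prrx1* there were 18.2, 17.0 and 20.9 counts of *Twist1* in MCT2 CO and 13.85, 13.3 and 11.45 in MCT2 KO. *Msx1* had 4.07, 3.58 and 5.18 counts on this scale in MCT2 CO and 2.71, 2.35 and 2.19 in MCT2 KO. *Snai1* and *Snai2* were likewise lower without overlap, by group means of 7.16 against 4.81 and of 4.23 against 2.97. *Twist2*, *Zeb1* and *Zeb2* overlapped between the groups on this scale too. Because *Prrx1* was taken as the denominator after its near-level values had been seen, this scale is a description and adds no support to the differences.

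**Figure D4:**
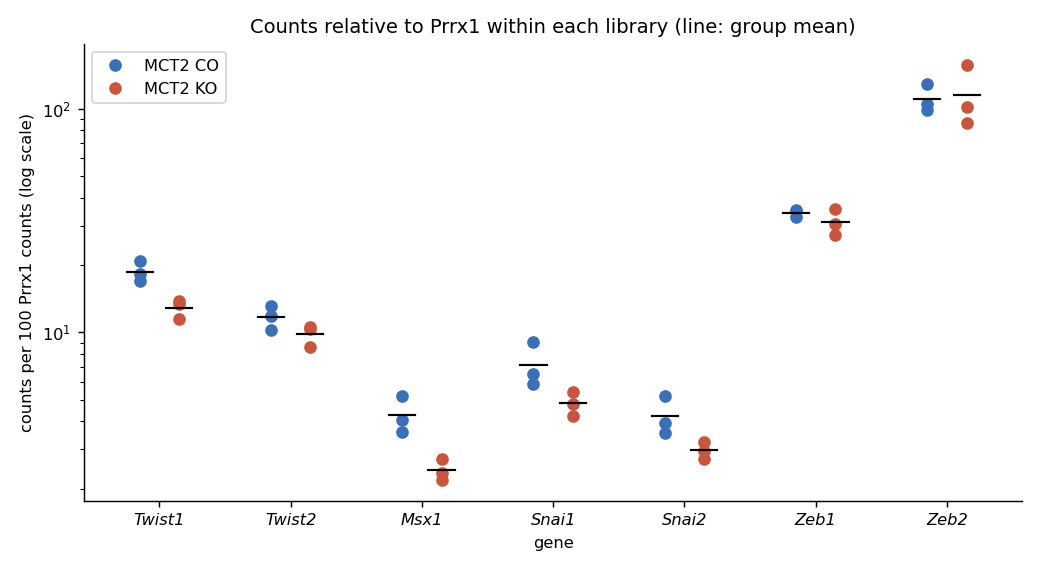
Counts of 7 genes per 100 counts of *Prrx1* in the same library (vertical axis, log scale), with a point for each library and a line at the group mean. For *Twist1*, *Msx1*, *Snai1* and *Snai2* every MCT2 KO point lies below every MCT2 CO point (*Twist1* 18.7 against 12.9 on average), and the other 3 genes overlap.

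The libraries within a group did not deviate alike for all 4 genes. MCT2 CO replicate 3 was the highest of all 6 libraries for *Msx1*, *Snai1*, *Snai2* and *Twist1*, at 0.58, 0.53, 0.45 and 0.32 above the mean of the 6 libraries on the log2 CPM scale. It was also the highest for the median of the fibroblast markers, at 0.60, while the other 5 libraries lay between -0.26 and -0.04 there. The 20 fibroblast markers summed to 3999, 4375 and 6116 CPM in MCT2 CO and to 3717, 3762 and 3760 CPM in MCT2 KO, with none at 0. Their summed level thus did not overlap between the groups, but their median did. Of the single fibroblast markers 7 lay lower without overlap, as the 4 genes did, against 8.77% of all genes kept. A median over a list and single genes are unlike measures. In the median MCT2 CO replicate 1, at -0.129, lay below MCT2 KO replicate 2 at -0.055 and MCT2 KO replicate 3 at -0.121. Without MCT2 CO replicate 3 the median log2 fold change of the fibroblast markers went from -0.44 to -0.165. In the same fit the log2 fold change of *Twist1* was -0.44, that of *Msx1* -0.66, that of *Snai1* -0.36 and that of *Snai2* -0.33. Without MCT2 CO replicate 3 and MCT2 KO replicate 2 together, a choice made after seeing the data, *Twist1* was at -0.49 and *Msx1* at -0.66, and *Snai1* and *Snai2* were at -0.29 and -0.28. For *Snai1* and *Snai2* these 2 libraries were the highest of MCT2 CO and the lowest of MCT2 KO, so leaving both out had to shrink their differences. For *Twist1* MCT2 KO replicate 2 was the highest MCT2 KO library, and for *Msx1* the MCT2 KO libraries were almost level. The choice of libraries thus fixed this contrast between the genes in advance, and nothing is read from it. The part of fibroblast RNA or of TC1 RNA in these differences was not tested.

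**Figure D5:**
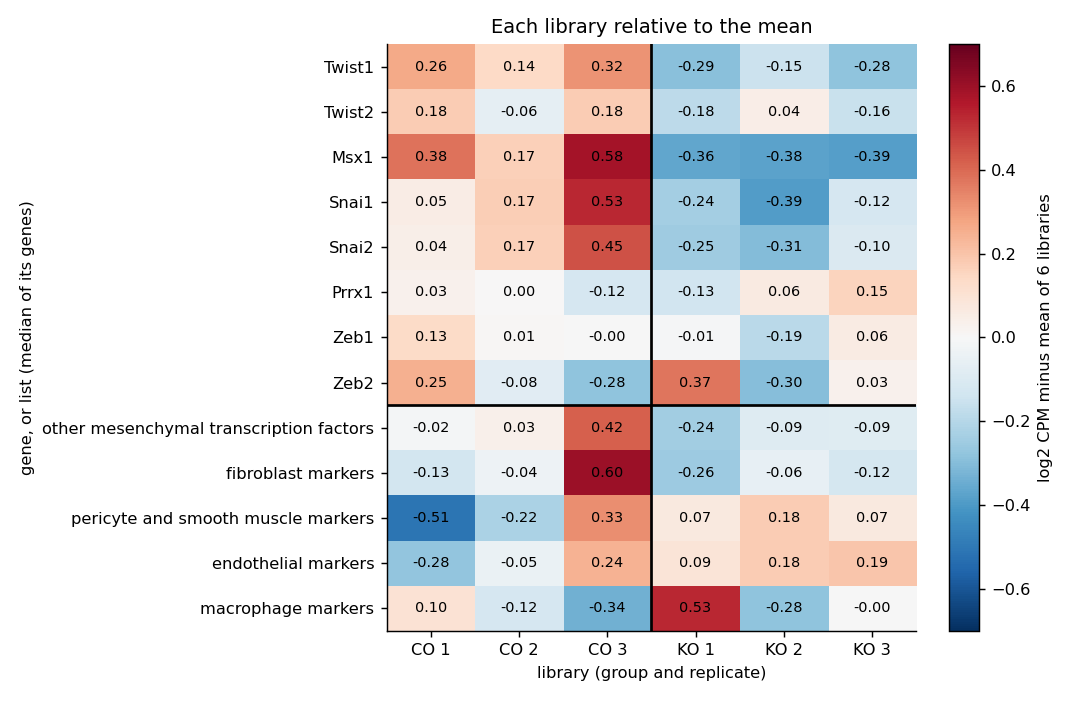
Log2 CPM of each library (columns) minus the mean of the 6 libraries, for the 8 genes and, below the black line, for the median gene of 5 lists (rows), on a color scale from blue (lower) to red (higher). MCT2 CO replicate 3 is the reddest column for *Msx1* (0.58), *Snai1* (0.53) and the fibroblast markers (0.60), and MCT2 KO replicate 1 is the highest column for both *Zeb2* (0.37) and the macrophage markers (0.53).

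Among 30 other transcription factors of mesenchyme, 22 passed the filter, 19 of them lower and 3 higher in MCT2 KO, with a median log2 fold change of -0.33 that was -0.17 without MCT2 CO replicate 3. Of these, 7 lay lower without overlap (the forkhead genes *Foxf1*, *Foxf2*, *Foxc1*, *Foxc2* and *Foxd1*, the cartilage factor *Sox9* and *Hic1*) and 0 higher. They are named after their values had been seen. Over all genes kept, 8.77% lay lower and 7.07% higher without overlap. All lists here were chosen with earlier results of these data known, so nothing is read from their counts. *Hic1*, a zinc finger repressor that marks mesenchymal progenitors, was the only one of the list called by DESeq2, at 20.7 ± 0.718 CPM in MCT2 CO and 11.8 ± 2.56 CPM in MCT2 KO (SD, n = 3) and a log2 fold change of -0.80 (SE 0.16). The highest CPM values of the list were those of *Hmga2*, a chromatin protein of embryonic and tumor cells, at 632.5 ± 42.8 and 717.6 ± 128 CPM, followed by *Runx2*, the bone regulator, at 94.7 ± 1.46 and 88.05 ± 8.59 CPM, and *Tead2*, a partner of YAP, at 89.2 ± 6.20 and 85.8 ± 6.85 CPM (SD, n = 3). *Hand2* and *Dlx5* were at 0 in all libraries. The edgeR test called 0 of the list, with 7 lower and 0 higher at an unadjusted p under 0.05, against 5.6% and 3.77% of all genes kept. DESeq2 called 0.334% of the genes kept as lower, and 0.27% without the filter.

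The proteins that pair with TWIST and SNAI factors were read as a second list of 16 genes, all of which passed the filter, with 12 lower and 4 higher and a median log2 fold change of -0.06. Over the libraries left out in turn this median ranged from -0.13 without MCT2 CO replicate 1 to -0.02 without MCT2 CO replicate 3, and it was -0.10 without MCT2 KO replicate 2 and -0.03 without MCT2 KO replicate 1. The E proteins *Tcf3*, *Tcf4* and *Tcf12*, dimer partners of TWIST1, had log2 fold changes of -0.12, -0.23 and -0.01 with overlapping groups, at up to 286 CPM in the group mean. The inhibitors of DNA binding, ID proteins that take E proteins away from such dimers and are themselves BMP targets like *Msx1*, were lower without overlap for *Id1*, *Id3* and *Id4* and overlapped for *Id2* (-0.22, SE 0.27). DESeq2 called *Id3*, whose log2 fold change was -1.13 (SE 0.26), in both runs. It called *Id1* (-1.50, SE 0.31) among the genes kept but not without the filter, and *Id4* (-1.58, SE 0.46) in neither run. *Ctbp2*, a corepressor, was lower without overlap too, but 93.8% of its exons lie within the spans of other listed genes, so its counts are uncertain. The corepressor *Sin3a* was higher without overlap by 0.12 (SE 0.08). Of the 16 genes 4 lay lower and 1 higher without overlap, against 8.77% and 7.07% of all genes kept. With edgeR 0 of the list were called, and 4 were lower and 0 higher at an unadjusted p under 0.05, against 5.6% and 3.77%. DESeq2 called 0.334% of the genes kept as lower, and 0.27% without the filter. Nothing is read from these counts.

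Among 17 ligands, receptors and SMADs of the BMP and TGF-β pathways, which induce *Msx1*, *Snai1* and *Snai2* in many tissues, 15 passed the filter, 13 of them lower and 2 higher, with a median log2 fold change of -0.06 that was -0.11 without MCT2 KO replicate 1 and -0.09 without MCT2 CO replicate 1. The receptor gene *Acvr1* and *Smad5*, named after their values had been seen, were lower without overlap, by -0.16 (SE 0.07) and -0.15 (SE 0.07). These were 2 of the 15, with 0 higher without overlap, against 8.77% lower and 7.07% higher over all genes kept. The most abundant were *Bmp2* at 381 ± 49.6 and 333 ± 40.0 CPM, *Tgfbr1* at 317 ± 84.7 and 366 ± 143 CPM and *Tgfbr2* at 326 ± 20.8 and 302.5 ± 30.9 CPM (SD, n = 3), all overlapping. Neither edgeR nor DESeq2 called any of the list. At an unadjusted p under 0.05 edgeR counted 0, against 5.6% lower and 3.77% higher over all genes kept.

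The genes that these factors are known to repress or raise in EMT were read last. Of 22 epithelial genes 8 passed the filter, 3 lower and 5 higher, with a median log2 fold change of 0.10 that was -0.06 without MCT2 KO replicate 1, -0.01 without MCT2 CO replicate 3, 0.05 without MCT2 CO replicate 1 and 0.17 without MCT2 KO replicate 2, and none was set apart between the groups. *Cdh1*, the E-cadherin gene, was at 15.9 ± 3.64 CPM in MCT2 CO and 23.2 ± 7.73 CPM in MCT2 KO, *Pkp3* and *Jup*, of desmosomes, ranged over 16.6 to 24.4 and 13.7 to 18.95 CPM, and *Cldn3* was at 0. Of 20 mesenchymal genes all passed, 12 lower and 8 higher, with a median of -0.05 that was 0.07 without MCT2 CO replicate 3, 0.02 without MCT2 KO replicate 1, -0.01 without MCT2 KO replicate 3 and between -0.15 and -0.09 without each other library. *Vim*, the vimentin gene, was at 3508 ± 300 and 3416 ± 106 CPM, *Tnc*, of the tenascin matrix protein, at 1799 ± 135 and 2251 ± 744 CPM, and *Fn1*, the fibronectin gene, at 1650 ± 329 and 1554 ± 225 CPM (SD, n = 3), all with overlapping groups. *Fbn1* and *Lox*, of elastic fibers and collagen cross-linking, were lower without overlap, at log2 fold changes of -0.56 (SE 0.22) and -0.27 (SE 0.09). Without overlap 2 of the 20 mesenchymal genes lay lower and 0 higher, against 8.77% and 7.07% of all genes kept. Neither tool called a gene of either list. At an unadjusted p under 0.05 edgeR counted 0 epithelial genes and 3 mesenchymal genes, all 3 lower. Over all genes kept 5.6% were lower and 3.77% higher at this p.

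In the fibroblast list 14 genes were lower and 6 higher. Without overlap 7 lay lower and 1 higher, against 8.77% and 7.07% of all genes kept. DESeq2 called *Col3a1* and *Lum* in both runs and *Dcn* only without the filter, all lower. It called 0.334% of the genes kept as lower, and 0.27% without the filter. With edgeR 0 were called, and 8 were lower and 1 higher at an unadjusted p under 0.05, against 5.6% and 3.77% of all genes kept. *Col3a1*, of a fibrillar collagen, was at 1489 ± 468 and 881 ± 118 CPM (SD, n = 3), with a log2 fold change of -0.76 (SE 0.21). *Dcn* and *Lum*, small matrix proteoglycans, were at log2 fold changes of -0.98 (SE 0.29) and -1.56 (SE 0.37). The abundant collagens *Col6a3* and *Col5a1* were at -0.42 (SE 0.17) and -0.46 (SE 0.16). The 6 genes that were higher, named after their values had been seen, were *Col14a1* at 0.77 (SE 0.38), *Thy1* at 0.53 (SE 0.34), *Pdpn* at 0.32 (SE 0.125), *Gsn* at 0.21 (SE 0.10), *Fbln1* at 0.04 (SE 0.15) and *Fap* at 0.01 (SE 0.20), of which *Gsn* was the one without overlap. *Pdgfra*, the receptor gene common to most fibroblasts, was at 403 ± 70.2 and 388 ± 44.5 CPM (SD, n = 3) with overlapping groups, as was *Prrx1*.

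The genes most like *Twist1* over the 6 libraries were taken as those with the smallest root mean square difference in centered log2 CPM, among 13484 other genes kept. They were *Crtam* (0.0593), *Pawr* (0.06), *Adhfe1* (0.0649), *Pla2g4c* (0.0668) and *Barx1* (0.0682), in log2 units. For *Msx1* they were *C1qtnf4* (0.08), *Raly* (0.0854), *Slc7a3* (0.0856), *Il17c* (0.09) and *Efnb3* (0.0968). The highest of the 10 was *Pawr* at 7.62 CPM in the MCT2 CO mean, so the values of all 10 carry more counting error than those of *Twist1*. Of the other mesenchymal factors *Snai2*, *Twist2*, *Msx1* and *Snai1* ranked 264, 322, 436 and 613 in likeness to *Twist1*. To *Msx1* the nearest were *Twist1* at rank 49, *Snai1* at rank 91 and *Snai2* at rank 140. *Zeb2* stood farthest from both, at ranks 10710 and 10557.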

How the data were processed

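CD11b+ cells of subcutaneous TC1 tumors from 3 MCT2 CO and 3 MCT2 KO mice were measured by poly-A RNA-seq, and the sample labels gave the groups and replicate numbers. According to the submitters' processing notes, read quality was screened with FastQC 0.12.0 and MultiQC 1.28, reads were aligned to GRCm38 with STAR 2.7.11b, and genes were counted with featureCounts 2.1.1. The authors deposited raw counts per gene for 25701 genes, without normalization or pooling, and a length column, classed here as another unit, which equals the whole gene span. The annotation, feature type and strand setting of the counting are not given in the sources used here, so the counts may hold reads in introns. Of 25594 genes shared with GENCODE M21, 98.1% had the same span length but 2.2% the same position, so positions and exon lengths are those of GENCODE M21 on GRCm38.

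Counts were analysed as deposited with R 4.3.3, edgeR 4.0.16, limma 3.58.1 and DESeq2 1.42.0. The filter was filterByExpr with a minimum count of 10 and a minimum total of 15, the scaling was TMM, and the test was the edgeR quasi-likelihood test over all 6 libraries without covariates, with Benjamini-Hochberg adjustment over 13485 genes. The thresholds for a call were 0.05 for the adjusted p and 0.58 for the size of the log2 fold change. The procedure was also run on simulated counts with larger changes than those of the factors, so nothing is read from it on power at their sizes. Alternatives were DESeq2, limma-voom, other scalings and filters, a replicate block, span lengths and each library left out. Total counts of 24863611 or more leave little counting error except at low CPM, such as that of *Msx1* in MCT2 KO. By rule, the named genes were the 10 factors, *Slc16a7*, from each list the genes called by edgeR or DESeq2 and the 3 with the highest CPM, overlapping genes, and the 5 genes most like *Twist1* and most like *Msx1*. Of the 3 in the pericyte and smooth muscle, endothelial and macrophage lists only the highest, *Notch3*, *Flt1* and *Lyz2*, are given. Other genes of the lists, such as those without overlap, *Pdgfra*, the E protein and ID genes and the higher fibroblast markers, were named after their values had been seen. The factors, lists and tests were chosen with earlier results of these data known. The labels do not say more of the replicates than their numbers, so the spread between libraries may be partly technical.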

Additional observations from a re-analysis of the deposited data

How the results depend on the processing

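No direction of a factor turned under another test, scaling or filter. The median log2 fold change of all genes was 0.0004 in the main fit, and 0.0072 and 0.0005 with the other scalings. Over all settings it lay between -0.0028 and 0.0124. The count of genes called, 0 with edgeR, was 79 with DESeq2 on the genes kept, 83 with DESeq2 and 2 with edgeR on every gene with any count, and 10 without MCT2 CO replicate 3 and MCT2 KO replicate 2, a choice made after seeing the data; the cause was not tested. Leaving out each library in turn gave 0 to 2 genes called, with 2 only without MCT2 KO replicate 2. The count of factors called, 0, was 1 in both DESeq2 runs and 0 without each library. The median log2 fold change of the 8 factors ranged from -0.37 to -0.24 over the libraries left out, the latter without MCT2 CO replicate 3, where its cause was not tested. Over the same settings *Twist1* ranged from -0.53 to -0.44, *Msx1* from -0.86 to -0.66, *Snai1* from -0.61 to -0.36, *Snai2* from -0.53 to -0.33, *Twist2* from -0.27 to -0.14, *Prrx1* from 0.0025 to 0.14, *Zeb1* from -0.13 to -0.02 and *Zeb2* from -0.10 to 0.24. Same-numbered libraries deviated from their group means with correlations of 0.216, -0.247 and -0.161. With so few libraries per group these values cannot show whether the numbers pair the samples. With the replicate number as a block edgeR called 0 genes and 0 factors, with a median of -0.32 over the 8. At this depth no difference in *Tcf21* or *Msx2* was detectable.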

Other observations

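Lists of other cell types were read with the same fit, in which edgeR called 0 genes of each. At an unadjusted p under 0.05 edgeR counted 6 neutrophil genes, 1 pericyte and smooth muscle gene and 1 macrophage gene, all higher, and 0 endothelial and 0 epithelial tumor cell genes. Over all genes kept 3.77% were higher and 5.6% lower at this p. Nothing is read from these counts. Of 10 neutrophil markers 8 passed the filter, 1 lower and 7 higher in MCT2 KO, with a median log2 fold change of 1.70 that was 1.17 without MCT2 KO replicate 1. Of the 8, 6 lay higher without overlap, against 7.07% of all genes kept, and DESeq2 called *S100a8*, *S100a9*, *Retnlg*, *Mmp8* and *Ngp*. It called 0.586% of the genes kept, and 0.448% without the filter. *S100a9*, of a neutrophil calcium-binding protein, was at 3.42 ± 0.803 CPM in MCT2 CO and 12.6 ± 7.28 CPM in MCT2 KO (SD, n = 3), and *Csf3r*, the receptor gene for granulocyte colony stimulating factor, at 86.1 ± 13.1 and 92.9 ± 44.9 CPM with overlapping groups. The summed level of the list was 83.3 to 103 CPM in MCT2 CO and 69.6 to 186 CPM in MCT2 KO.

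Of 11 pericyte and smooth muscle markers all passed, 1 lower and 10 higher, with a median log2 fold change of 0.34. That median was 0.62 without MCT2 CO replicate 3, 0.215 without MCT2 CO replicate 1 and 0.23 without MCT2 KO replicate 2. Among them 1 gene, *Des*, was higher without overlap (named after its value had been seen), against 7.07% of all genes kept. *Notch3*, a pericyte receptor gene, was at 14.8 ± 1.52 and 15.65 ± 3.37 CPM (SD, n = 3). Of 12 endothelial markers all passed, 4 lower and 8 higher, with a median of 0.27 that was 0.06 without MCT2 CO replicate 1, 0.12 without MCT2 KO replicate 2 and 0.15 without MCT2 KO replicate 3, and *Flt1* was at 121 ± 9.07 and 127 ± 8.30 CPM (SD, n = 3). Of the macrophage markers 2 were lower and 11 higher, with a median of 0.23 that was -0.01 without MCT2 KO replicate 1 and 0.35 without MCT2 CO replicate 1. *Lyz2*, the lysozyme gene, was at 1058 ± 214 and 1687 ± 412 CPM (SD, n = 3) with overlapping groups. DESeq2 called 0 genes of these 3 lists in both runs. The 2 epithelial tumor cell markers that passed had a median of 0.19, which was -0.23 without MCT2 KO replicate 1, 0.05 without MCT2 CO replicate 3 and 0.32 to 0.39 without MCT2 CO replicate 1, MCT2 KO replicate 2 or MCT2 KO replicate 3.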
